A study of Mus musculus with 18 samples.

Results

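The renal medulla of male CD1 mice was compared between the first days after birth (P0, P2 and P4) and the days that follow (P6, P8 and P10), across all genes that the arrays name. P stands for postnatal day, and CD1 is an outbred laboratory stock of mice with no engineered allele named in the labels and no treatment. The comparison holds 6 arrays of the 18 in the series, 3 in each period, and the cortex arrays of the same 6 ages served for contrast. Each array is an Illumina bead array of biotin-labelled cRNA made from RNA pooled from 4 male animals, and each region at each age has 1 array. No array was repeated, so the ages within a period stand in for replicates. The spread behind every SE and p-value below is therefore the spread between ages, and it holds the age changes inside each period as well as any difference between pools. The dissected inner region is titled medulla or papilla. In such whole tissue, more cells of a type and more RNA per cell cannot be told apart.

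The medulla holds the loops of Henle, the collecting ducts, the vasa recta and a stroma rich in matrix. In rodents it is short at birth: the loops and the papilla lengthen after birth, while new nephrons go on forming at the outer edge of the cortex for some days. The ability to concentrate urine matures over the following weeks, as the thick ascending limb exports salt without water and the inner medulla accumulates urea and other solutes, against which its cells hold protective osmolytes and chaperones.

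Values are the authors' normalized log2 intensities, on which a difference of 1 is a doubling of intensity if the scale is plain log2; whether it was variance-stabilised is not given in the sources used here, so no folds are stated. A gene was tested if a probe for it read above its array's 75th percentile on at least 3 of the 6 medulla arrays, which left 7886 of 17711 named genes. The label medulla was checked against 8 defining markers, and all 8 read higher in medulla than in cortex over P0 to P10, by 0.55 for Slc12a1, the salt transporter of the thick ascending limb, up to 3.32 for the lens and kidney chaperone Cryab. Genes of the cortex were present too: at P0 the proximal tubule phosphate transporter Slc34a1 read 13.47 in medulla and 13.29 in cortex, and Wt1, a factor of podocytes and of cells that form nephrons, read 10.67 and 11.98. At P0 the cortex markers Slc22a6 (11.97 in medulla and 11.63 in cortex), Slc12a3 (10.38 and 10.19), Slc5a12 (9.15 and 9.04) and Nphs1 (8.65 and 8.63) also read higher in medulla. Podxl (11.98 and 12.1) and Calb1 (9.75 and 10.16) read lower. Over P0 to P10 all of these cortex markers were lower in medulla on average, from -0.33 for Nphs1 to -1.1 for Wt1. In a limma fit of region with age as a block, Wt1, Podxl and Calb1 had an adjusted p under 0.05. For the other cortex markers it ran from 0.0651 for Nphs1 to 0.256 for Slc5a12. Ucp1, the brown fat uncoupling protein, read 8.05, 8.07 and 11.89 in medulla at P0, P2 and P4 and 9.02, 9.55 and 10.87 at P6, P8 and P10, so P4 and P10 carried most of it. The defining markers Alb of liver, Cyp11a1 of adrenal and Acta1 and Ckm of muscle passed the level filter on 0 of the 6 medulla arrays, and Star, an adrenal gene, on 1 of them.

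Few genes passed the test in medulla. Of the 7886 genes, 107 were called at an adjusted p under 0.05, which is 1.36% of them; 52 rose (0.659%) and 55 fell (0.697%). The called genes moved by at least 0.31, with a median of 0.61 among those that rose and -0.57 among those that fell, while the median size of change over all genes tested was 0.0833. All 107 had 3 arrays of one period on one side of the 3 arrays of the other, as did 11.5% of all genes upward and 11.6% downward. For 77 of the 107 the largest step between neighbouring ages lay between P4 and P6, the boundary the test compares across, as it did for 2225 of all genes, or 28.2%. Of the 107, 34 moved the same way at every step from P0 to P10, as did 195 of all genes, or 2.47%. The 107 were chosen for a difference between these periods, so these counts among them are not independent of that choice. The count rests on single arrays: 0 genes were called in limma without P2 (1027 at an unadjusted p under 0.05) or without P8 (1247), 2 without P10, 58 without P0 and 442 without P4, against 107 with all 6 (1467 unadjusted). A straight line over day called 616 genes, 7.81% of those tested, with 307 rising (3.89%) and 309 falling (3.92%), and 100 of the 107 were among them.

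Among called genes, the 3 with the largest rises were Lcn2, Igfbp2 and Egf. Lcn2, lipocalin 2, which binds bacterial siderophores and is made by stressed tubules, read 8.55, 8.87 and 9.96 at P0, P2 and P4 and 10.91, 11.04 and 11.53 at P6, P8 and P10. Every later array was above every earlier one, and the largest step within a period was between P2 and P4; the rise was 2.03 (SE 0.311, adjusted p = 0.0268). Igfbp2, a secreted protein that binds insulin-like growth factors, read 8.93, 9.65 and 10.19, then 10.90, 10.72 and 10.99, a rise of 1.28 (SE 0.251, adjusted p = 0.0456). It climbed through the earlier period and was level through the later one. Egf, the epidermal growth factor precursor of the thick ascending limb, read 8.45, 8.72 and 8.96, then 9.38, 9.87 and 10.30, a rise of 1.14 (SE 0.207, adjusted p = 0.0383) that went on at every step. A second Egf probe gave 0.0428, so the rise was read by 1 probe of the gene, and the mean of its probes gave 0.59.

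Tmem158, a membrane protein, read 9.52, 9.92 and 10.23 and then 10.69, 10.96 and 11.23, a rise of 1.07 (SE 0.179, adjusted p = 0.032). Cpm, carboxypeptidase M, which trims peptides at the cell surface, read 9.38, 9.99 and 10.37 and then 10.83, 10.94 and 11.14, a rise of 1.05 (SE 0.205, adjusted p = 0.0456). Bcl6, a transcriptional repressor, read 9.22, 9.56 and 9.999 and then 10.53, 10.58 and 10.77, a rise of 1.04 (SE 0.166, adjusted p = 0.0268). All of these climbed without a step down from P0 to P10, and their periods did not overlap.

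The other 9 of the 15 largest called rises ran from 0.72 to 0.96. Cxcl14, a chemokine, read 9.96, 10.15 and 10.78 and then 11.25, 11.24 and 11.21 (rise 0.94, SE 0.173), although another Cxcl14 probe gave 0.34. Mgp, matrix Gla protein, which inhibits calcification, read 11.07, 11.06 and 11.31 and then 11.72, 12.22 and 12.19 (rise 0.89, SE 0.133). Adamts5, which cleaves the proteoglycan aggrecan, read 9.19, 9.18 and 9.32 and then 9.85, 10.01 and 10.24 (rise 0.80, SE 0.099). Cxcl14 took its largest step between P2 and P4, Adamts5 between P4 and P6 and Mgp between P6 and P8. Proteins of vessels, Angpt2 (angiopoietin 2, a ligand of the Tek receptor) and Esm1 (endocan, secreted by endothelium), rose by 0.80 (SE 0.127) and 0.72 (SE 0.081). Pfkfb3, whose product drives glycolysis through fructose 2,6-bisphosphate, rose by 0.79 (SE 0.125), and the transcriptional repressor Zbtb20 by 0.77 (SE 0.109), although another Zbtb20 probe gave 0.0755. Ugt3a2, a UDP-glycosyltransferase, rose by 0.96 (SE 0.189) and Rnase4, a secreted ribonuclease, by 0.82 (SE 0.159), although another Rnase4 probe gave 0.486. The adjusted p of these 9 genes ran from 0.0204 to 0.0456.

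**Figure D1:**
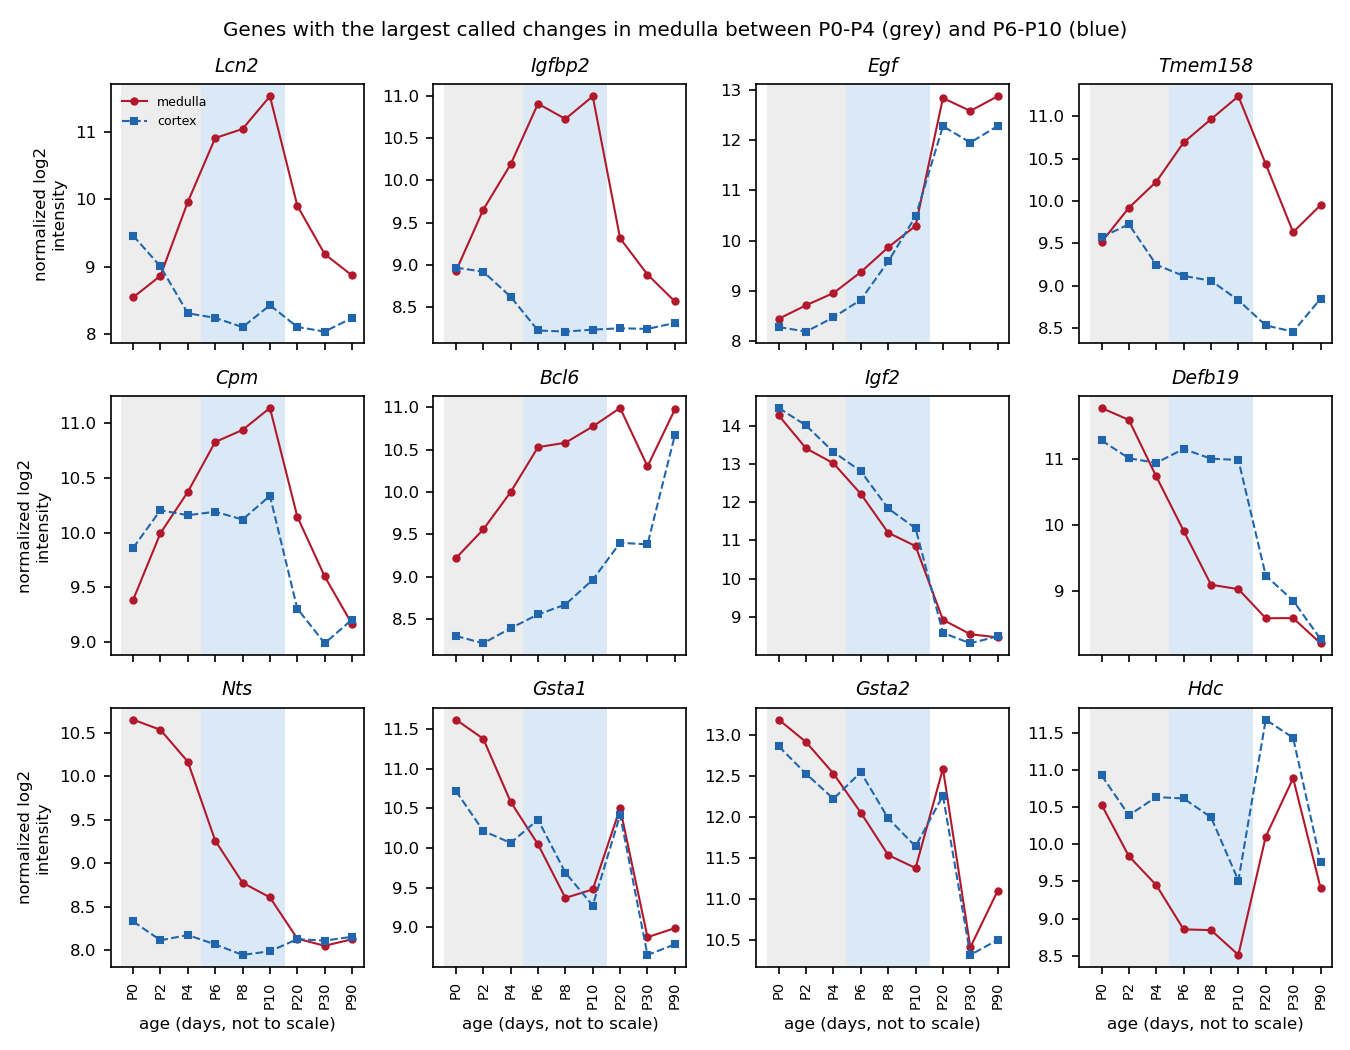
Normalized log2 intensity (vertical axis, own range in each panel) at the 9 ages (horizontal axis, not to scale). Shown are the 6 called genes that rose most and the 6 called genes that fell most in medulla. Each point is 1 array, with medulla as red circles and cortex as blue squares. Lcn2 went from 8.55 at P0 to 11.53 at P10 in medulla while the cortex arrays went from 9.46 to 8.43, and Igf2 fell in both regions.

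Among called genes, the 5 with the largest falls were Igf2, Defb19, Nts, Gsta1 and Gsta2. Igf2, insulin-like growth factor 2, an imprinted fetal growth factor, read 14.27, 13.41 and 13.02 at P0, P2 and P4 and 12.21, 11.20 and 10.85 at P6, P8 and P10. It lost signal at every step, and the fall was -2.14 (SE 0.365, adjusted p = 0.0329). Defb19, a beta-defensin, read 11.79, 11.60 and 10.74 and then 9.91, 9.09 and 9.02, a fall of -2.04 (SE 0.288, adjusted p = 0.0268). Nts, the precursor of the peptide neurotensin, read 10.65, 10.53 and 10.17 and then 9.26, 8.78 and 8.61, a fall of -1.57 (SE 0.170, adjusted p = 0.0204). Both peptides were highest at P0 and neared the dim end of the scale by P10; Nts was dim at every age in cortex, between 7.94 and 8.33 over P0 to P10.

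Gsta1 and Gsta2 are neighbouring genes on chromosome 9 that encode alpha class glutathione S-transferases, enzymes that conjugate electrophiles and lipid peroxides to glutathione. Gsta1 read 11.62, 11.38 and 10.58 and then 10.05, 9.37 and 9.48, a fall of -1.56 (SE 0.253, adjusted p = 0.0289). Gsta2 read 13.18, 12.91 and 12.53 and then 12.05, 11.54 and 11.38, a fall of -1.22 (SE 0.191, adjusted p = 0.0268), and its other probe gave -1.46. Both stepped down across the boundary between the periods with no overlap. They are close copies, so a probe of one may also have read the other. Their promoters are printed because the pair moved together; they were chosen after the values were seen. Each is 300 bases from RefSeq on build GRCm38.p6, from upstream of the start of transcription to 50 bases after it, written 5′ to 3′ on the gene's strand, at chr9:78230419-78230718 on the plus strand for Gsta1 and chr9:78347096-78347395 on the minus strand for Gsta2. Capitals mark runs of at least 15 bases that both hold exactly, 93 bases in each.
Gsta1: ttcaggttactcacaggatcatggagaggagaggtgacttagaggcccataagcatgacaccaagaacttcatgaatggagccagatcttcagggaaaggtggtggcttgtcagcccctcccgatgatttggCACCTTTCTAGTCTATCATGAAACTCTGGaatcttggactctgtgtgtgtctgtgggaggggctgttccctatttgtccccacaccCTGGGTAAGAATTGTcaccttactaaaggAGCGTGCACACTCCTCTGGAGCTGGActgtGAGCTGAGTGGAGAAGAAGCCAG
Gsta2: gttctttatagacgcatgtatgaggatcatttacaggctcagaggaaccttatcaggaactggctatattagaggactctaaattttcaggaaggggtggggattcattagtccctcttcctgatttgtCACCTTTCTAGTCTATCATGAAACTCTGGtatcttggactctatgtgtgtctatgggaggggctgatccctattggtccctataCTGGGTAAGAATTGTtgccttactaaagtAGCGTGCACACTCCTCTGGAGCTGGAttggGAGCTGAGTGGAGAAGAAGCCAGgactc
Aligned end to end, 219 of 276 aligned columns were identical, or 79.3%. The similarity is a description of the sequences and says nothing of what binds them.

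Hdc, histidine decarboxylase, which makes histamine, read 10.54, 9.84 and 9.45 and then 8.85, 8.84 and 8.51, a fall of -1.21 (SE 0.228, adjusted p = 0.0427). Wt1 read 10.67, 10.42 and 9.88 and then 9.59, 9.39 and 9.12, a fall of -0.96 (SE 0.185, adjusted p = 0.0436). Slc5a10, a sodium-coupled sugar transporter of the proximal tubule, read 11.32, 11.30 and 10.74 and then 10.22, 10.09 and 9.93, a fall of -1.04 (SE 0.148, adjusted p = 0.0268). None of these overlapped between the periods. Afp, alpha-fetoprotein, fell by 0.97 (SE 0.162), and its levels beside those of other liver proteins are given further on. Car4, a membrane carbonic anhydrase, fell by 0.84 (SE 0.157), Lipa, the lysosomal acid lipase, by 0.81 (SE 0.156), and Ugt1a7c, a UDP-glucuronosyltransferase whose probe may read other Ugt1a transcripts, by 0.80 (SE 0.119). The other 3 Ugt1a7c probes gave -0.68 to -0.30. Cfi, complement factor I, fell by 0.90 (SE 0.135), the visceral smooth muscle actin Actg2 by 0.88 (SE 0.162), and Arxes2 by 0.95 (SE 0.175). The adjusted p of these last 7 genes ran from 0.0268 to 0.0436.

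The thin limb and inner medulla list had 7 measured members of 10, and 0 were called (limma; 4 with an unadjusted p under 0.05, all upward; 4 by the straight line over day). All 7 differences lay above 0, with a median of 0.34 against 0.000871 over all genes tested. Slc14a2, the urea transporter of the inner collecting duct and descending limb, read 10.29, 11.05 and 11.73 and then 12.25, 12.01 and 12.09, a difference of 1.09 (SE 0.282, adjusted p = 0.0909). Cryab read 12.15, 12.59 and 13.18 and then 13.72, 13.41 and 13.74, a difference of 0.98 (SE 0.216, adjusted p = 0.0626). Both climbed within P0 to P4 and were level from P6 on, so the climb before P6 entered the SE of the comparison. Psca, a small surface antigen, differed by 0.57 (SE 0.264), the water channel Aqp1 by 0.34 (SE 0.098), Bst1 by 0.28 (SE 0.080), S100a4 by 0.21 (SE 0.106) and the claudin Cldn4 by 0.10 (SE 0.138). The adjusted p of these last 5 was 0.111 or more.

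Of 14 measured members of the thick ascending limb list, only Egf passed the test (6 upward and 1 downward at an unadjusted p under 0.05; 5 rose by the straight line); 13 of the 14 differences lay above 0, with a median of 0.13. Bsnd, the chloride channel subunit barttin, read 10.87, 11.21 and 11.64 and then 11.70, 11.93 and 11.85, a difference of 0.59 (SE 0.162, adjusted p = 0.101). Umod, uromodulin, read 11.28, 11.89 and 11.87 and then 11.80, 12.35 and 12.52, a difference of 0.54 (SE 0.202, adjusted p = 0.197). P6 was below P2 and P4 for Umod, so its periods overlapped. Slc12a1 was near its later level from birth, with 12.92, 13.08 and 13.01 and then 12.90, 13.12 and 13.29 (difference 0.10, SE 0.098). The claudins that line the paracellular path differed by 0.23 for Cldn19, 0.20 for Cldn16 and 0.08 for Cldn10, and the potassium channel Kcnj1 by 0.16. Wfdc15b differed by 0.30, the phosphatase inhibitor Ppp1r1a by 0.07, the prostaglandin receptor Ptger3 by 0.07, and the Iroquois factors Irx3 and Irx1 by 0.04 and 0.03. The forkhead factor Foxq1 was the 1 member below 0, at -0.46 (SE 0.180, adjusted p = 0.22).

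Of 18 measured members of the collecting duct principal cell list, 0 were called (limma; 3 upward and 4 downward at an unadjusted p under 0.05; the straight line called 2 upward and 1 downward), with 9 above 0 and a median of -0.02. The vasopressin-regulated water channel Aqp2 read 11.47, 11.65 and 11.75 and then 11.54, 11.15 and 11.88, a difference of -0.10 (SE 0.158, adjusted p = 0.782). Its lowest array was P8 and its highest P10, and the periods overlapped. The basolateral water channels Aqp3 and Aqp4 differed by -0.05 and 0.27, the sodium channel subunits Scnn1a, Scnn1b and Scnn1g by -0.37, -0.22 and 0.02, and the sodium pump regulator Fxyd4 by 0.36. The largest differences upward were 0.49 for Hsd11b2, which inactivates corticosterone, and 0.42 for the kidney cadherin Cdh16 (adjusted p = 0.0642). Of the transcription factors, Gata3 differed by -0.29, Elf5 by -0.18, Tfap2b by -0.14 and Elf3 by 0.14. Krt18, Krt8, Kcne1, Npnt and Stc1 lay between -0.15 and 0.18.

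Of the 9 measured osmoprotection genes, 1 rose. Slc6a12, the betaine transporter that loads cells with osmolyte under hypertonic stress, read 9.82, 9.70 and 9.79 and then 10.09, 10.35 and 10.14, a rise of 0.43 (SE 0.082, adjusted p = 0.0436). It was level through P4 and higher on all later arrays. Its regulator Nfat5, the tonicity-responsive factor, read 11.03, 11.40 and 11.44 and then 11.88, 11.17 and 11.71, a difference of 0.30 (SE 0.173, adjusted p = 0.389) with P8 below P2 and P4. The taurine transporter Slc6a6 differed by -0.32, the amino acid transporter Slc38a2 by 0.25, the glycerophosphocholine enzymes Pnpla6 and Gpcpd1 by 0.15 and -0.20, the chaperone Hspb1 by 0.04 and the kinase Sgk1 by 0.02. The list's median was 0.15.

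Of 8 urea and water transport genes, 0 were called (limma; 2 upward and 1 downward at an unadjusted p under 0.05; 2 rose by the straight line), with a median of 0.11. Besides those already given, the vasa recta and red cell urea transporter Slc14a1 differed by 0.32 (SE 0.186), the intracellular water channel Aqp11 by -0.26 and the ammonia channel Rhcg by -0.05. Of 5 sodium pump genes 0 were called (1 upward and 1 downward unadjusted, 0 by the line), and the pump's regulator Fxyd2 differed by -0.16.

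**Figure D2:**
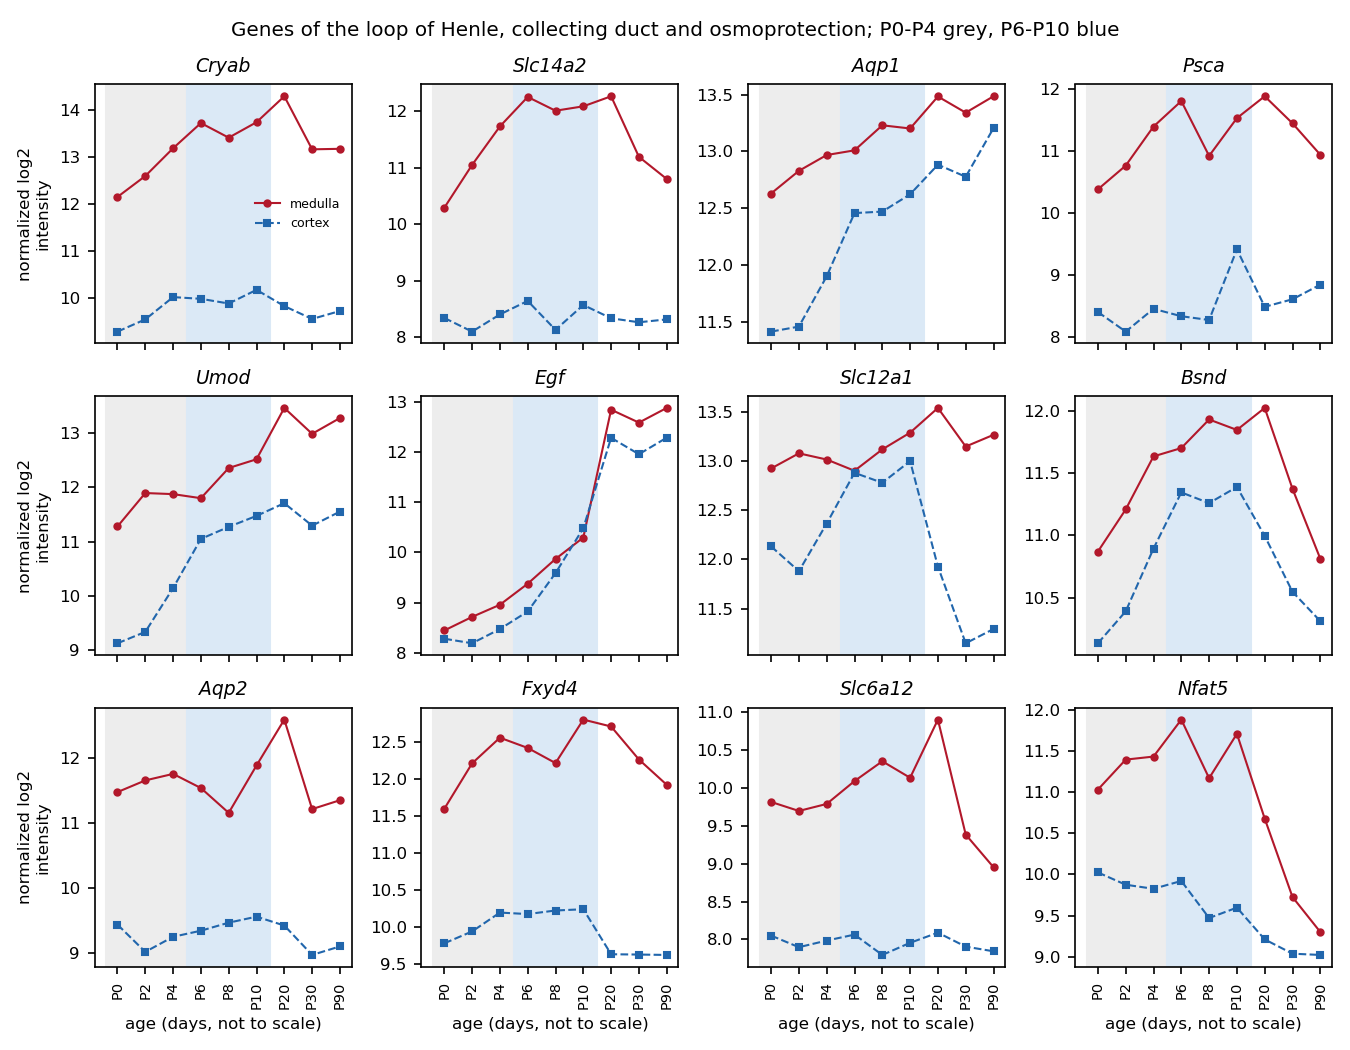
Normalized log2 intensity (vertical axis, own range in each panel) at 9 ages (not to scale) for 12 genes of the loop of Henle, the collecting duct and osmoprotection, with 1 array per point, medulla as red circles and cortex as blue squares. Slc14a2 climbed from 10.29 at P0 to 12.25 at P6 in medulla, while Slc12a1 stayed between 12.90 and 13.29 from P0 to P10.

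Among growth genes Igfbp2 rose and Igf2 fell, and no other listed member was called. Of 16 measured cell cycle genes, 0 were called in medulla (limma; 2 upward and 1 downward at an unadjusted p under 0.05; 1 fell by the line), with a median of 0.05. Top2a, the topoisomerase of dividing cells, read 9.46, 9.35 and 9.34 and then 9.19, 9.27 and 8.98, a difference of -0.23 (SE 0.085, adjusted p = 0.193). Of 17 DNA replication genes 0 were called (0 unadjusted, 0 by the line), with a median of -0.00848, and of 18 histone genes 0 were called (3 upward and 6 downward unadjusted; 2 upward and 1 downward by the line), with a median of -0.14. Tk1, thymidine kinase, differed by 0.24 and the histone gene H4c8 by 0.38 (adjusted p = 0.0548), where copies of a histone may share a probe. Of 9 imprinted fetal growth genes 1 fell, Igf2, and 6 fell by the straight line; the median was -0.37. The 11 insulin-like growth factor genes, which hold Igfbp2 and Igf2, had a median of 0.01.

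Among genes of nephron formation and signalling, Lcn2 was the 1 member called. Of 8 nephron progenitor, 8 committing nephron and 4 ureteric tip genes 0 were called (limma; 1 upward with 1 downward, 2 downward and 1 downward at an unadjusted p under 0.05), with medians of -0.08, -0.04 and 0.05. The straight line called 1 of them, a committing nephron gene, downward. Lhx1, a factor of the renal vesicle, read 9.46, 9.29 and 8.47 and then 8.44, 8.40 and 8.50, a difference of -0.62 (SE 0.211, adjusted p = 0.16) that came between P2 and P4. Meox1, the progenitor gene with the smallest p, differed by 0.26, and Gfra1, the GDNF co-receptor of the ureteric tip, by -0.21. Of 10 Wnt and 5 Hedgehog pathway genes 0 were called (3 upward with 1 downward and 0 unadjusted; 2 and 0 by the line); the Wnt antagonist Sfrp2 differed by -0.33 (adjusted p = 0.0598) and Ihh, a Hedgehog ligand, by -0.26. The 12 glucocorticoid-responsive genes, which hold Lcn2, had a median of -0.04. Of 8 prostaglandin genes 0 were called (3 upward and 2 downward unadjusted; 2 upward and 1 downward by the line); Ptgds, prostaglandin D synthase, read 8.63, 9.14 and 9.88 and then 10.37, 10.48 and 10.34, a difference of 1.18 (SE 0.245, adjusted p = 0.0539). Of 6 renin-angiotensin and endothelin genes 0 were called (1 upward unadjusted and by the line), with angiotensinogen, Agt, at 0.37 (adjusted p = 0.0539), and of 7 hypoxia genes 0 were called (1 upward unadjusted, 0 by the line).

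In the stroma, 2 of 12 measured genes rose and 0 fell, with a median of 0.07. Smoc2, a matricellular calcium-binding protein, read 10.34, 10.40 and 10.45 and then 10.79, 10.91 and 11.29, a rise of 0.61 (SE 0.116, adjusted p = 0.0436). Pdgfra, the PDGF receptor of interstitial fibroblasts, read 11.20, 11.32 and 11.45 and then 11.86, 11.88 and 11.75, a rise of 0.51 (SE 0.078, adjusted p = 0.0268). Neither overlapped between periods. Of 14 endothelial genes 1 rose: Eng, endoglin, a co-receptor for TGF-beta family ligands, by 0.47 (SE 0.081, adjusted p = 0.0343), from 9.62, 9.75 and 9.88 to 10.30, 10.15 and 10.21. Of 18 fibrillar collagen and matrix genes 0 were called (5 upward and 3 downward unadjusted; 1 and 2 by the line), and of 14 basement membrane genes 0 were called (3 upward unadjusted; 2 by the line). Lum, lumican, differed by 0.39 (adjusted p = 0.0626), and Col4a3, a collagen IV chain of the mature basement membrane, read 8.76, 9.11 and 9.48 and then 9.98, 9.74 and 9.85, a difference of 0.74 (SE 0.155, adjusted p = 0.0539).

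Metabolic lists had no calls in medulla. For oxidative phosphorylation 0 of 20 were called (2 downward unadjusted, 0 by the line) with a median of -0.07; for fatty acid oxidation 0 of 13 (3 downward, 1 by the line) with -0.12; and for the citric acid cycle 0 of 10 (1 downward, 0 by the line) with -0.08. The lowest p in each belonged to the cytochrome oxidase subunit Cox5b (-0.27, adjusted p = 0.0894), the electron transfer dehydrogenase Etfdh (-0.20) and citrate synthase, Cs (-0.23). For glycolysis 0 of 12 were called (5 upward, 1 by the line) with a median of 0.09, hexokinase 1, Hk1, differing by 0.29 (adjusted p = 0.0945), and for creatine 0 of 5 (1 upward and 1 downward; 1 upward by the line), the creatine transporter Slc6a8 differing by -0.23.

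Other nephron segments and neighbouring cells were read as lists too. Of 16 proximal tubule genes 0 were called (1 upward and 4 downward unadjusted, 1 and 3 by the line). The median was -0.06, with 7 of the 16 above 0. The organic anion transporter Slc22a6 read 11.97, 11.59 and 10.91 and then 10.53, 10.70 and 10.30, a difference of -0.98 (SE 0.224, adjusted p = 0.07). Kap had the largest difference upward, 1.22 (SE 0.381, adjusted p = 0.134). Of 7 distal convoluted and connecting tubule genes 0 were called (1 upward and 3 downward; 1 and 1 by the line), with kallikrein Klk1 at 0.64 (adjusted p = 0.112), and of 9 intercalated cell genes 0 were called (1 and 1; 1 upward by the line), with the anion exchanger Slc4a9 at -0.28. Of 6 podocyte genes 3 fell: Wt1, the sialoglycoprotein Podxl by 0.52 (SE 0.104) and the phosphatase receptor Ptpro by 0.41 (SE 0.076). Wt1 also marks nephron progenitors and Podxl also marks endothelium. Summed levels of a list are sums over its measured members of 2 to the power of the deposited value, so they assume a plain log2 scale, which is not given in the sources used here. The podocyte genes' summed level ran from 23860 to 27780 at P0 to P4 and from 25450 to 28640 at P6 to P10. Such a sum is weighted toward the brightest members, so it need not follow the 3 that fell. The list also holds Cdkn1c, which stands in the imprinted and stroma lists too, and 1 of its 6 differences lay above 0, at 0.22. For the proximal tubule list it ran from 53580 to 60540 at P0 to P4 in medulla, against 36630 to 50090 in cortex. At P6 to P10 it was 54530 to 63750 in medulla and 76070 to 98210 in cortex. The part of proximal tubule tissue in the dissected medulla was not tested. Of 6 urothelial genes, Upk2, a uroplakin of the bladder and pelvis lining, fell by 0.71 (SE 0.087, adjusted p = 0.0204), from 9.57, 9.71 and 9.71 to 8.82, 8.92 and 9.11.

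Of 6 smooth muscle genes, Actg2 and the smooth muscle myosin Myh11 fell, Myh11 by 0.59 (SE 0.091, adjusted p = 0.0268); without the P4 and P10 arrays 0 of the list were called, and the summed level of the list ran from 17230 to 20140 and from 13920 to 19260 in the periods. Of 6 liver plasma protein genes Afp fell, and all 6 differences lay below 0 with a median of -0.34. Afp read 9.39, 9.53 and 8.81 and then 8.42, 8.17 and 8.25, and Apoa2 (8.58, 9.97 and 9.16, then 8.82, 8.98 and 8.63) and Ttr (9.37, 9.85 and 9.09, then 9.14, 9.27 and 8.74) were highest at P2 as well. The list's summed level was 2816 to 4462 at P0 to P4 and 2278 to 2564 at P6 to P10, with Alb under the filter on all 6 arrays; the part of liver RNA in the fall of Afp was not tested. Of 6 red blood cell genes 0 were called (limma; 4 upward unadjusted, 0 by the line) but all 6 lay above 0 with a median of 0.44, and Hba-a1 read 14.47, 14.07 and 14.40 and then 14.72, 14.89 and 14.60. The red cell gene with the smallest p, Hbb-bt, differed by 0.52. Their summed level was 37010 to 50690 and 56920 to 67130 and did not overlap between periods; the part of blood content in the rise of Eng was not tested. Of 7 macrophage, 1 lymphocyte, 7 antigen presentation, 4 brown fat and 2 fat cell genes 0 were called (0, 0, 3 upward, 0 and 1 upward unadjusted; 2 antigen presentation and 1 fat cell gene upward by the line), with Cd14 at 0.29, Cd79b at -0.16, H2-D1 at 0.42, Ucp1 at 0.47 (SE 0.911) and the lipase Lpl at 0.28. Without P4 and P10, the arrays with the highest Ucp1, Ucp1 itself was called, with a rise of 1.22 (SE 0.159, adjusted p = 0.0179), so that setting still held a rise of this brown fat gene; the other 3 brown fat genes were not called there. Adrenal, skeletal muscle, and nerve and glia lists had 0 measured members.

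**Figure D3:**
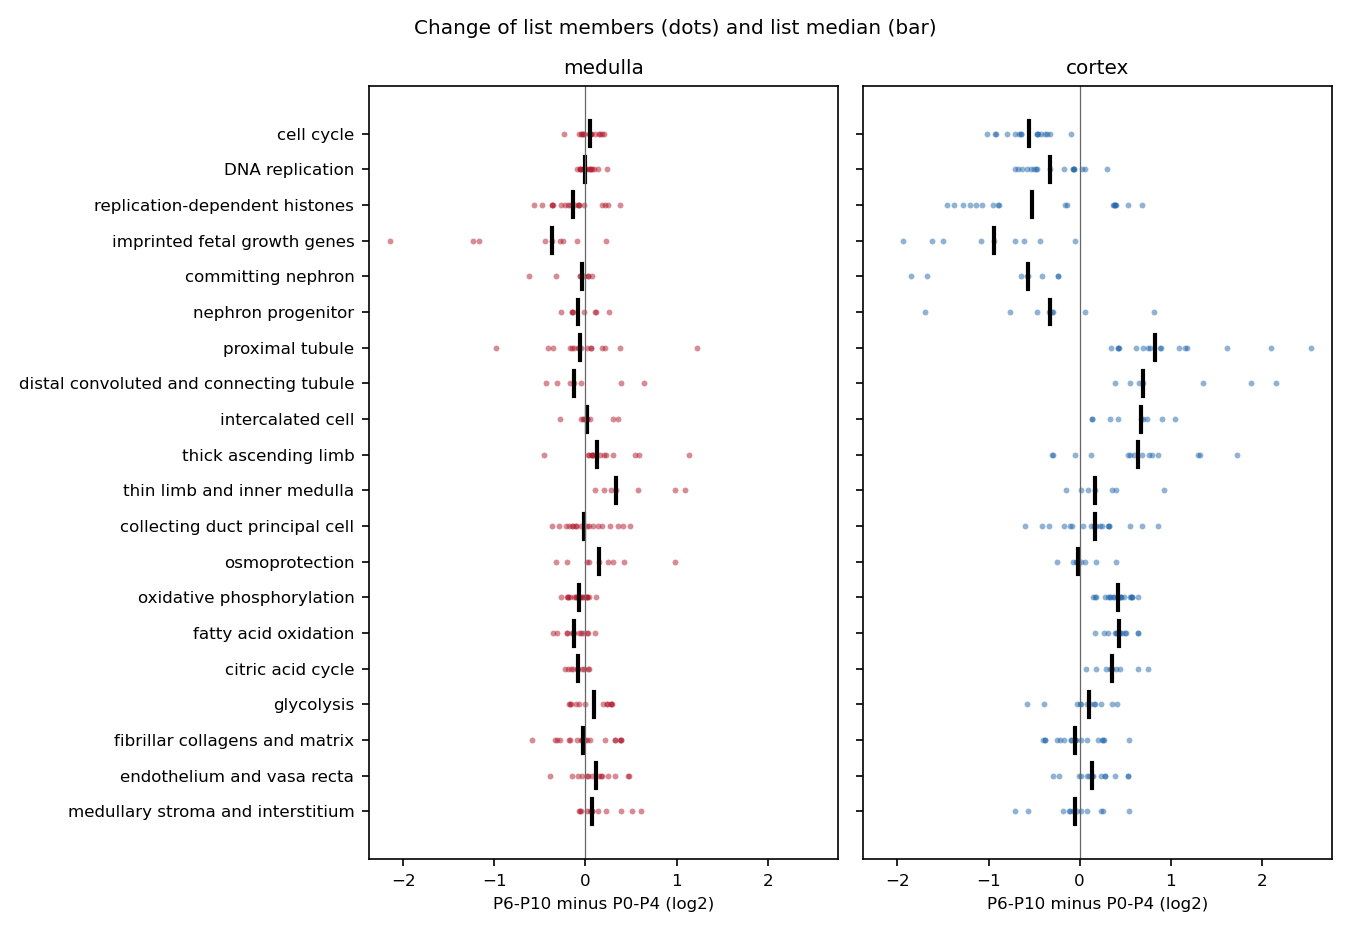
Difference between P6-P10 and P0-P4 (log2, horizontal axis) of each measured member (dots) of 20 gene lists, with the list median as a black bar, in medulla (left) and cortex (right). The cell cycle median was 0.05 in medulla and -0.56 in cortex, and the proximal tubule median was -0.06 and 0.83.

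The cortex moved more over the same ages. Among the same 7886 genes, 2650 were called in cortex (33.6%), 1280 upward (16.2%) and 1370 downward (17.4%), with a median size of change of 0.171 and a residual SD of 0.101 against 0.0911 in medulla. Of the 107 genes called in medulla 43 were called in cortex too, which is 40.2% of the medulla calls and 1.62% of the cortex calls; 29 of them went the same way and 14 the opposite way. The difference itself was tested in 1 model of 12 arrays, with age as a block: the medulla change differed from the cortex change for 2386 genes (30.3%; 3343 at an unadjusted p under 0.05), higher in medulla for 1210 (15.3%) and lower for 1176 (14.9%). Without P0, P2 or P10 the count was 1544, 1446 and 1546. Of the 107 medulla calls, 81 differed from cortex by this test. The 107 were chosen by their change on the same medulla arrays, so this count cannot be set against the 30.3% of all genes.

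Among the 8 genes with the largest higher change in medulla, some rose there: Lcn2 went up by 2.03 in medulla and differed by -0.67 in cortex without a call, where it read 9.46, 9.0 and 8.31 and then 8.24, 8.11 and 8.43, a difference of 2.70 (SE 0.463, adjusted p = 0.00186). Igfbp2 (difference 1.90, adjusted p = 0.00109) and Tmem158 (1.59, adjusted p = 0.00121) rose in medulla and fell in cortex, by 0.61 and 0.51. Others were not called in medulla and fell in cortex. Gja1, the gap junction protein connexin 43, stayed between 10.97 and 11.12 in medulla and went from 12.48, 12.68 and 11.82 to 10.50, 10.05 and 10.24 in cortex, a difference of 2.04 (SE 0.165, adjusted p = 0.000275). The heparan sulphate enzyme Hs3st3b1 (1.68), the factor Tead2 of the Hippo pathway (1.61) and the Notch target Hey1 (1.53) had no call in medulla either, and in cortex they fell, with changes of -1.75, -1.68 and -1.85. Npy, neuropeptide Y, read 8.99, 8.84 and 9.12 and then 10.76, 9.60 and 11.61 in medulla, where it was not called (1.67, SE 0.387, adjusted p = 0.0718), and alternated between 8.15 and 10.16 in cortex; its difference of 1.88 (adjusted p = 0.00466) lost its call without age as a block (adjusted p = 0.0711).

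Genes whose change was lower in medulla included Defb19, which fell in medulla and stayed between 10.95 and 11.29 in cortex, a difference of -2.01 (adjusted p = 0.000332). The other 7 genes with the largest lower change in medulla all rose in cortex. The glucose transporter Slc5a2 of the proximal tubule read 10.17, 10.60 and 10.74 and then 10.63, 11.44 and 10.57 in medulla against 9.49, 9.87 and 10.75 and then 11.61, 12.71 and 12.09 in cortex, a difference of -1.73 (SE 0.189, adjusted p = 0.000332). Glucose-6-phosphatase, G6pc, differed by -1.76, the brush border dipeptidase Dpep1 by -1.76, the calcium buffer Pvalb by -1.76, the carbonic anhydrase Car15 by -1.72 and the kallikrein Klk1b27, whose probe may read its close copies, by -1.88. Rnase4 rose in both regions, by 0.82 in medulla and 2.52 in cortex, a difference of -1.70 (adjusted p = 0.000963).

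**Figure D4:**
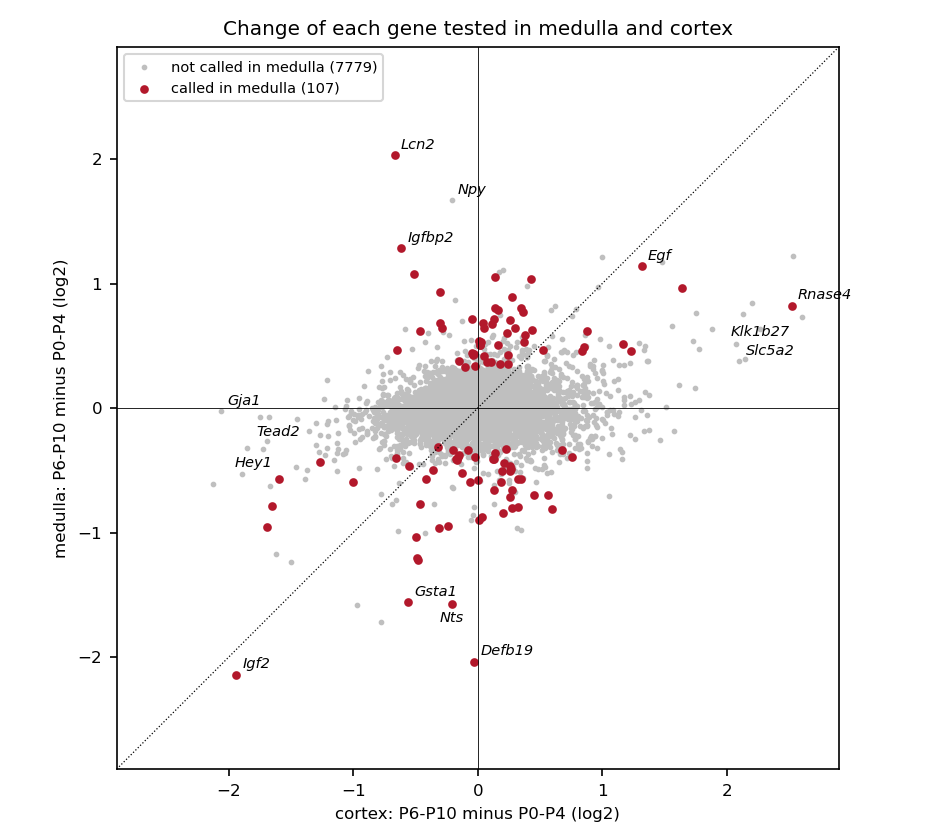
Difference between P6-P10 and P0-P4 (log2) of each of the 7886 genes in cortex (horizontal axis) and medulla (vertical axis), with the 107 genes called in medulla in red and equal change on the dotted line. Lcn2 and Igfbp2 lie above 0 in medulla and below 0 in cortex, Igf2 lies near the dotted line and Gja1 lies at 0 in medulla.

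The lists differed between the regions in the same 12 arrays, read against 15.3% of all genes higher and 14.9% lower in medulla. Of 16 cell cycle genes 14 had a higher change in medulla and 0 a lower one; 15 fell in cortex and 0 were called in medulla. Their summed linear level was 17240 to 19290 and then 18320 to 19960 in medulla, and 20500 to 29940 and then 15380 to 16200 in cortex. Of 17 DNA replication genes 6 were higher and 0 lower (9 fell in cortex), of 18 histone genes 9 were higher and 5 lower (9 fell and 7 rose in cortex), of 8 committing nephron genes 6 were higher and 0 lower (5 fell in cortex), and 4 of 4 ureteric tip genes were higher. Of 16 proximal tubule genes 16 were lower (15 rose in cortex), of 20 oxidative phosphorylation genes 16 were lower (17 rose in cortex), and of 13 fatty acid oxidation genes 10 were lower (9 rose in cortex). Also lower, with 0 higher, were 7 of 7 distal convoluted and connecting tubule and 7 of 9 intercalated cell genes. The same held for 8 of 10 citric acid cycle and 5 of 5 creatine genes. These 4 counts were 7, 6 to 7, 4 to 9 and 2 to 5 with each age left out in turn. The brown fat marker Ucp1 rose in cortex, by 1.78 (adjusted p = 0.0477), beside the mitochondrial genes. The part of brown fat in the list differences was not tested. Leaving out P4, P6 and P10 cannot test it, since P8 is then the only later age in each region. Ucp1 in cortex was also still higher at P8 (9.53) than at P2 (8.32), and P0 was lower than P2. With each age left out in turn the counts ran from 10 to 15 for the cell cycle, 4 to 9 for DNA replication, 4 to 7 for the committing nephron, 1 to 4 for the ureteric tip, 14 to 16 for the proximal tubule, 11 to 16 for oxidative phosphorylation and 7 to 11 for fatty acid oxidation. Of the lists of the medulla's own segments, thick ascending limb genes had a lower change in medulla for 7 of 14 and a higher one for 1: Umod differed by -1.19 and Ppp1r1a by -1.23, both rising in cortex, by 1.73 and 1.29. Cryab (0.58, adjusted p = 0.00241) and Slc14a2 (0.93, adjusted p = 0.0217) had the higher change in medulla, and Aqp1 (-0.59, adjusted p = 0.00233) the lower one.

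The levels at later ages are given beside these values without a test, since they share the P6 to P10 arrays. In medulla at P20, P30 and P90, Lcn2 read 9.90, 9.19 and 8.87, Igfbp2 9.31, 8.89 and 8.57, Cxcl14 9.27, 8.73 and 8.89, and Adamts5 8.94, 8.88 and 8.26, all under their P6 to P10 arrays. Egf read 12.84, 12.58 and 12.88 and Ugt3a2 13.12, 13.65 and 13.81, all above them. Igf2 read 8.92, 8.55 and 8.46 and Nts 8.13, 8.05 and 8.12, lower still. Slc5a10, at 11.24, 12.01 and 12.29, and Hdc, at 10.11, 10.89 and 9.42, were above their P6 to P10 arrays again. Slc14a2 read 12.27, 11.19 and 10.80 and Slc6a12 10.90, 9.38 and 8.95, so each had its highest medulla array at P20, for Slc14a2 barely above P6.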

How the data were processed

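The values analysed are normalized log2 intensities that the authors deposited, made with lumi and limma in R per the series' design text; the background correction, transformation and normalization method are not given in the sources used here. They ran from 7.01 to 15.8, with array medians of 8.08 to 8.10. A second table of scanner signals was not used, because its 36 columns of per-sample values match no label. Depth does not apply to arrays, and their number limits the precision.

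Of 46630 probes, 29975 carried 1 gene symbol, 10 several and 16645 none in the platform annotation, and 29920 of the first matched RefSeq by gene ID. The level filter kept 9792 probes. Each gene was read by its kept probe of highest mean over the 6 arrays; 1577 genes had more than 1. Differences between P6-P10 and P0-P4 were tested with limma 3.58.1 in R 4.3.3 (lmFit and eBayes, 4 residual degrees of freedom), with Benjamini-Hochberg adjustment over 7886 genes and a call at 0.05. The difference from cortex was the interaction of region with period over 12 arrays with age as a block, since residuals of the regions at the same age correlated at 0.141 to 0.465. The straight line over day was scaled to 6 days. The fits were tested on simulated data with independent noise and no age drift inside a period. That test therefore does not cover such drift. Lists are described by counts and medians, with no set test.

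Genes named are the 15 largest called changes each way with periods that did not overlap, the 8 largest called differences from cortex each way, up to 4 called members of a list or the one with the smallest p, every measured member of 5 lists (thin limb, thick ascending limb, principal cell, urea and water transport, osmoprotection), and markers of neighbouring tissues. The comparison, the 45 lists (592 genes, 525 on the array, 374 tested) and the rule were chosen with earlier results of these data known. Alternatives were other filters, probe rules, array weights, variance priors, normalizations, a line over day, all 18 arrays, each age left out, and the ages of highest Ucp1 left out.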

Additional observations from a re-analysis of the deposited data

Results flagged for a closer look

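The change from P0-P4 to P6-P10 differed between medulla and cortex for 2386 genes, by the interaction term in limma. Differences are given as the medulla change minus the cortex change. Among genes with a higher change in medulla, Lcn2 differed by 2.70, Gja1 by 2.04, Igfbp2 by 1.90, Npy by 1.88, Hs3st3b1 by 1.68, Tead2 by 1.61, Tmem158 by 1.59, Hey1 by 1.53 and Cxcl14 by 1.24. Cpm differed by 0.91, Esm1 by 0.76, Wt1 by 0.73, Angpt2 by 0.67, Pfkfb3 by 0.62, Mgp by 0.62, Bcl6 by 0.61, Adamts5 by 0.46 and Zbtb20 by 0.41; Wt1 fell in both regions, less in medulla. Among genes with a lower change in medulla, Defb19 differed by -2.01, Klk1b27 by -1.88, Dpep1 by -1.76, G6pc by -1.76, Pvalb by -1.76, Slc5a2 by -1.73, Car15 by -1.72, Rnase4 by -1.70, Lipa by -1.41 and Nts by -1.36. Ugt1a7c differed by -1.08, Car4 by -1.05, Gsta1 by -1.002, Actg2 by -0.91, Cfi by -0.91, Gsta2 by -0.74, Hdc by -0.72, Arxes2 by -0.71, Ugt3a2 by -0.67, Afp by -0.65 and Slc5a10 by -0.54. Lipa rose in cortex, by 0.59, and fell in medulla.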

How the results depend on the processing

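The number of genes called in medulla, 107, fell to 0 with no level filter, where 17711 genes were tested (2206 at an unadjusted p under 0.05), and to 30 with the spread taken from all 18 arrays. It was 365 with array weights, 174 with a trended and robust variance prior, 616 with the straight line, and 175 without P4 and P10 (75 of the 107 among them). Leaving out each age in turn gave 0 to 442, with 3 arrays against 2 in each fit. A filter on the mean level, other probe rules and normalizations gave 101 to 113 genes. The difference from cortex, 2386 genes, ran from 1446 to 2794 with each age left out and was 1797 without age as the replicate block that pairs the regions. The medulla periods share no age and were not paired. None of the 41 named genes that were called in medulla changed sign under any alternative run for them. Their periods did not overlap, so leaving out ages or fitting a line could not have changed the sign. Of the 41, 0 were still called with no level filter, without P2 or without P8. The number was 1 without P10, 14 with all 18 arrays, and 24 to 41 under the other alternatives. Counting each named gene under each alternative as 1 result, 248 lost a call and 82 gained one; Egf was 0.59 and Zbtb20 0.42 as the mean of their probes. The causes were not tested. With 1 array per age and no repeat, a difference between pools cannot be told apart from a difference between ages, and dim genes give compressed differences.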

Other observations

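Sterol synthesis genes were read as a list after the values were seen. The counts and median of the list are not independent of that choice. The shares of all genes given beside them are therefore no test of the list. Of 16 measured members 3 fell in medulla and 0 rose (10 downward and 0 upward at an unadjusted p under 0.05; 9 fell by the straight line over day), 15 of 16 differences lay below 0, and the median was -0.35 against 0.000871 over all genes. Of all genes tested 0.697% were called lower and 3.92% fell by the line. In limma 1467 of the 7886 had an unadjusted p under 0.05 in either direction. Squalene epoxidase, Sqle, read 10.57, 10.53 and 10.30 at P0, P2 and P4 and 10.01, 10.01 and 9.67 at P6, P8 and P10, a fall of -0.57 (SE 0.109, adjusted p = 0.0436), although another probe gave -0.149. Tmem97, a sterol-regulated membrane protein, fell by 0.41 (SE 0.065), and Dhcr7, the last enzyme of cholesterol synthesis, by 0.34 (SE 0.059). The summed linear level of the list was 25840 to 29510 at P0 to P4 and 21930 to 22950 at P6 to P10 in medulla, and 28970 to 29660 and 27500 to 32520 in cortex. The change was lower in medulla than in cortex for 5 members and higher for 0, where 14.9% of all genes were lower. With each age left out in turn it was lower for 3 to 6 members.

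Of 24 genes with a difference of 1 or more in size in medulla, 13 were called and 11 were not. The 11, named after their values were seen, include Hmox1, heme oxygenase 1, at -1.72 (adjusted p = 0.0564), Nat8 at -1.58, Dlk1 at -1.23 and Mest at -1.17, both imprinted, and, upward, Nupr1 at 1.21 and Lypd2 at 1.11.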
